A study of Mus musculus with 15 samples.

Results

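A set of 10 genes used as marks of plasmacytoid dendritic cells was followed across cultured blood progenitors with graded loss of Apc. The genes are Spib, Siglech, Cox6a2, Pacsin1, Upb1, Tlr7, Tlr9, Smim5, Lair1 and Igha, and they were read through every probe set that the platform annotation assigns to one of them alone. All 10 had such a probe set, 18 in total, out of 18193 genes and 45037 probe sets measured. The cells began as LSK cells, the lineage-negative, Sca1-positive, Kit-positive fraction of C57BL6 bone marrow. Every group, controls included, received the retrovirus MSCV-Cre-IRES-GFP ex vivo and was grown in Stemspan medium with mFlt3L, mTpo and mSCF, and RNA was taken from sorted GFP-positive cells and amplified before labelling. Genotypes at Apc were wt/wt, 15lox/15lox, 15lox/1572T and 15lox/1638N, where 15lox is the floxed allele and 1572T and 1638N are hypomorphic alleles. There were 15 arrays: 3 for each mutant genotype and 6 for wt/wt, of which arrays 4 to 6 were the main control. The labels give no age and do not say whether the arrays of a group came from separate animals, and the p-values below then reflect no more than array-to-array spread, which may be technical.

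Plasmacytoid dendritic cells are immune cells that make large amounts of type I interferon when viral nucleic acid reaches their endosomes. They arise in the bone marrow from progenitors under the influence of Flt3 ligand, one of the cytokines in this culture, and their identity depends on the E protein Tcf4 with the Ets-family factor Spib. Apc is a scaffold of the complex that degrades beta-catenin, so its loss raises canonical Wnt signalling. Some of the 10 genes are not exclusive to these cells: Igha encodes the constant region of the IgA heavy chain and belongs to the B lineage, Cox6a2 is also the muscle form of a respiratory chain subunit, Pacsin1 is also a neuronal protein and Upb1 a liver enzyme. These are bulk samples, so fewer cells of a type and less RNA per cell cannot be told apart.

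Array medians lay between 6.65 and 6.84 on the log2 scale, and precision is limited by how few arrays each group has. At 96.7% of probe sets wt/wt arrays 1 to 3 and wt/wt arrays 4 to 6 had means that differed by at most 0.05, against 24.0% for 15lox/15lox and the same control arrays. Arrays 1 to 3 were therefore kept out of the main fit. Whether they were adjusted to the mean of the others before deposit is not given in the sources used here, and if so, p-values with all 6 arrays are too small. Such values below are given as an alternative only, with this limit. By Xist and the Y-linked Eif2s3y the 3 control arrays were of male type, whereas 2 of 3 arrays of 15lox/15lox and 1 of 3 in each other mutant group were of female type. At Apc probe set 1420956_at the control arrays read 9.61 to 9.93, those of 15lox/15lox 5.58 to 6.10, those of 15lox/1638N 8.47 to 8.67 and those of 15lox/1572T 8.64 to 8.97. Of the 4 Apc probe sets, 1435543_at went the other way in 15lox/15lox, from 9.57 to 9.85 in the control to 10.23 to 10.66. The same probe set read 10.07 to 10.42 in 15lox/1572T, also above the control, and 9.82 to 9.91 in 15lox/1638N. Of 8 measured stem and progenitor markers 0 had an adjusted p under 0.05 by limma in the 3 comparisons with wt/wt. Kit read 11.19 and Cd34 13.34 in the control. Flt3 differed by -0.30, -0.60 and -0.40 in 15lox/15lox, 15lox/1638N and 15lox/1572T (adjusted p = 0.56, 0.0892 and 0.635). Ly6a, which encodes Sca1, was not analysed here.

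Most of the 18 probe sets read lower in every mutant genotype than in wt/wt, and the median difference was widest in 15lox/1638N. The log2 difference was below 0 at all 18 in 15lox/15lox and in 15lox/1638N and at 17 in 15lox/1572T, where Tlr9 was level with the control. Its median over the 18 was -0.94 in 15lox/15lox, -1.28 in 15lox/1638N and -0.98 in 15lox/1572T, beside -0.03, 0.00 and -0.01 over all probe sets. Past the threshold, an adjusted p under 0.05 by limma over all probe sets, were 4 of 18 in 15lox/15lox (Pacsin1 at both probe sets, Smim5 and Igha at 1), all lower, where 1.50% of all probe sets passed and 0.333% were called lower. In 15lox/1638N 8 of 18 passed, all lower (Pacsin1 at 2, Smim5, Lair1 at 2 and Igha at 3), against 1.39% of all probe sets called and 0.839% called lower. In 15lox/1572T 1 of 18 passed, Pacsin1, against 0.0289% called and 0.0178% called lower. With all 6 wt/wt arrays as control the counts were 8, 14 and 3, all lower, where 2.15%, 5.49% and 0.471% of all probe sets were called lower, under the limit on arrays 1 to 3. With array type, from Xist and Eif2s3y, as a covariate the counts were 2, 3 and 0, where 42, 217 and 5 of all 45037 probe sets were called lower. The members had been chosen with results of these data known, so these shares are descriptions and not independent evidence.

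The arrays of the groups were often fully separated. All 3 mutant arrays lay below all 3 control arrays at 11 of 18 probe sets in 15lox/15lox, 16 in 15lox/1638N and 12 in 15lox/1572T, where the shares of all probe sets were 10.4%, 14.2% and 7.89%. At 8 probe sets of 6 genes (Spib, Siglech, Pacsin1, Smim5, Lair1 and Igha) this held in all 3 genotypes, and at the same number with all 6 wt/wt arrays. Spib and Siglech are among these although neither passed the test, and their control arrays had SDs of 0.89 and 0.83. Lair1 is among them through 1430447_a_at only, and Pacsin1 through 1449381_a_at only. The genotypes share their control arrays. No share of all probe sets was worked out for the 3 genotypes together or for all 6 wt/wt arrays, so the count of 8 has no background beside it.

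**Figure D1:**
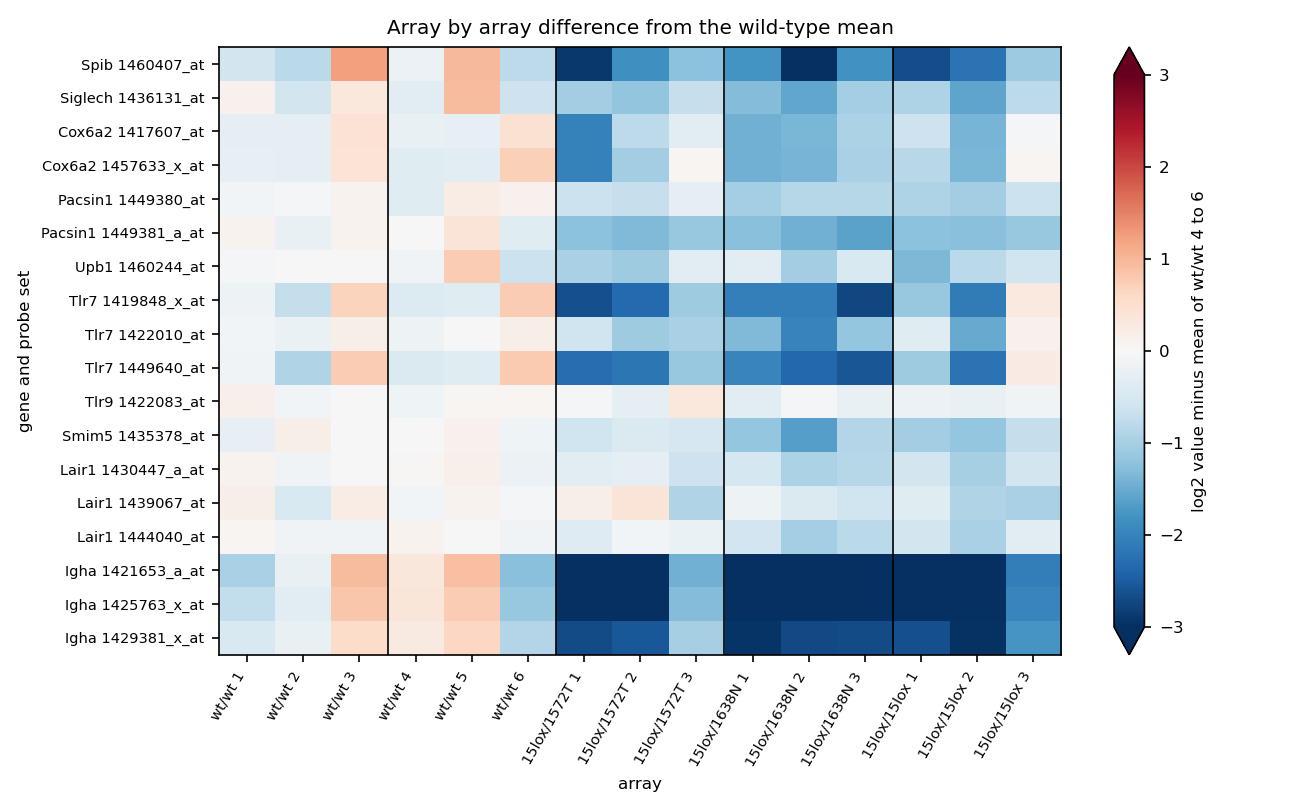
Each cell is the log2 value of a probe set (rows, 18) on an array (columns, 15) minus the mean of wt/wt arrays 4 to 6, with blue for lower and red for higher and the colour scale ending at -3 and 3. The mutant columns are mostly blue, deepest at Igha, and the third arrays of 15lox/1572T and 15lox/15lox are paler than their partners at most probe sets.

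Spib encodes an Ets-family transcription factor needed for the development and function of plasmacytoid dendritic cells and expressed in B cells as well. Its single probe set read 10.11, 11.26 and 9.50 on wt/wt arrays 4 to 6, and 9.74, 9.49 and 11.52 on arrays 1 to 3. In 15lox/15lox it read 7.63, 8.07 and 9.20, in 15lox/1638N 8.49, 7.07 and 8.47, and in 15lox/1572T 7.39, 8.45 and 9.05. Every mutant array was thus below every control array, by a gap of 0.30 at the closest in 15lox/15lox. The log2 difference was -1.99 ± 0.59 (SE) in 15lox/15lox (adjusted p = 0.192), -2.28 ± 0.59 in 15lox/1638N (adjusted p = 0.0961) and -1.99 ± 0.59 in 15lox/1572T (adjusted p = 0.499). None passed with 3 control arrays. With all 6 the adjusted p in 15lox/1638N was 0.0219, under the limit stated for these arrays.

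Siglech, a sialic acid-binding lectin of the mouse that signals through the adaptor Tyrobp, is the gene of the 10 most closely tied to these cells. On wt/wt arrays 4 to 6 it read 7.13, 8.39 and 6.84, on 15lox/15lox arrays 6.53, 5.87 and 6.66, on 15lox/1638N arrays 6.16, 5.90 and 6.43, and on 15lox/1572T arrays 6.42, 6.28 and 6.77. The groups did not overlap, but wt/wt array 5 stood well above its partners and the closest gap, in 15lox/1572T, was 0.07. The differences were -1.10 ± 0.35 (SE), -1.29 ± 0.35 and -0.97 ± 0.35 in 15lox/15lox, 15lox/1638N and 15lox/1572T, with adjusted p of 0.250, 0.113 and 0.629. Its mean lay at percentile 49 of all probe set means, a moderate signal. In 15lox/1638N the adjusted p was 0.0202 with all 6 wt/wt arrays, under the same limit.

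Lair1 encodes an inhibitory receptor for collagen found on many leukocytes. It was read by 3 probe sets, which differed in what they showed. Probe set 1444040_at read 10.28, 10.19 and 10.08 on the control arrays and 9.60, 9.17 and 9.38 in 15lox/1638N, a fall of 0.80 ± 0.17 (SE, adjusted p = 0.0449). Probe set 1430447_a_at went from 9.05, 9.16 and 8.83 to 8.49, 8.07 and 8.15 in the same genotype and fell by 0.78 ± 0.16 (adjusted p = 0.0459). The first call ended in every fit that left out an array except those without 15lox/15lox array 2 or 3, and the second except without those or 15lox/1572T array 3, with adjusted p up to 0.185 and 0.187. Both also ended with array type as a covariate (adjusted p = 0.0845 and 0.0859) and after quantile normalization (0.0594 and 0.0527). The first ended with the replicate block, where the control is wt/wt arrays 1 to 3 (adjusted p = 0.0528). The second ended with a trended, robust variance prior (adjusted p = 0.0601). In 15lox/15lox the same probe sets read -0.61 ± 0.17 and -0.70 ± 0.16 against the control (adjusted p = 0.145 and 0.0698), and in 15lox/1572T -0.23 ± 0.17 and -0.42 ± 0.16 (adjusted p = 0.845 and 0.653). The third, 1439067_at, passed in none of the 3, and in 15lox/1572T its difference of -0.11 turned to 0.28 without array 3 of that genotype and to 0.12 with array weights.

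The start regions below belong to genes with at least 1 probe set separated from wt/wt in all 3 genotypes and for which a sequence was held. They are shown so that they can be read beside each other. RefSeq sequence on GRCm38.p6, 250 bases before to 50 after the start, was held for 6 of the 10 genes, and 4 of these are printed, each on the strand of its gene. Capitals mark any of 4 short patterns searched on both strands: GAGGAA, a core bound by PU.1 and Spib; CACCTG, an E-box bound by E proteins such as Tcf4; CTTTGA, a core bound by Tcf and Lef factors; and GAAANNGAAA, the interferon-stimulated response element core.
Siglech, chr7:55767934-55768233, plus strand: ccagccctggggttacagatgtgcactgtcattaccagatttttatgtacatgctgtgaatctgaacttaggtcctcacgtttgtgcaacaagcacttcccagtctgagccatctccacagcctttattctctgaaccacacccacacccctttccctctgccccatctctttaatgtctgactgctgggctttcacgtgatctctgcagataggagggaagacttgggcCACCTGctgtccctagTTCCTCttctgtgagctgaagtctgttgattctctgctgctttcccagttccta
Spib, chr7:44532022-44532321, minus strand: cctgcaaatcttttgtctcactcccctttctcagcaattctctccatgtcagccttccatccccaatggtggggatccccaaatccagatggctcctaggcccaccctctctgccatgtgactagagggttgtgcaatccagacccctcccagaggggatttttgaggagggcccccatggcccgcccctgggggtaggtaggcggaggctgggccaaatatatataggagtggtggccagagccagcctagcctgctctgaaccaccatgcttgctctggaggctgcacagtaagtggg
Lair1, chr7:4063155-4063454, minus strand: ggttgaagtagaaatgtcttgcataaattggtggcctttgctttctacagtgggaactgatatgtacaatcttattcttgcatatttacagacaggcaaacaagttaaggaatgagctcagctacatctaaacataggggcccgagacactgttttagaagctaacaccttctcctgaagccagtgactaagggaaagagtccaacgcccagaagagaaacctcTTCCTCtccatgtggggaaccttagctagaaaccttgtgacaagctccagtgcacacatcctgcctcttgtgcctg
Pacsin1, chr17:27684989-27685288, plus strand: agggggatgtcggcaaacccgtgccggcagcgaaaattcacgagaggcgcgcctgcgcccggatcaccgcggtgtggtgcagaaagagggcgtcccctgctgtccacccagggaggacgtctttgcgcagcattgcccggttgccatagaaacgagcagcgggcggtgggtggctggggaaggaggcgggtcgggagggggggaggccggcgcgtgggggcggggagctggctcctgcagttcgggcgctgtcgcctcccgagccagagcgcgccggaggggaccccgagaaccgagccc

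No pattern was shared by all windows. GAGGAA was present in 4 of the 6 windows (Siglech, Lair1, Tlr9 and Upb1), CACCTG in 2 (Siglech and Tlr9), CTTTGA in 1 (Upb1) and the interferon pattern in 0, and no match overlapped another. Among all 32851 start regions of the same length 28.3%, 20.2%, 16.0% and 3.44% held these patterns. Siglech carried CACCTG starting 20 bases before the start. It also carried GAGGAA, on the other strand, at bases 247 to 252 of the window, a match that spans the start. The windows of Spib and Pacsin1 held none of the 4 patterns, which says only that these letters are not in this stretch.

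Of 9 measured partners in Siglech and Lair1 signalling, 0 passed in any genotype. Tyrobp, the activating adaptor of Siglech, read 13.75 ± 0.03 (SD, n = 3) in wt/wt and differed by -0.26, -0.41 and -0.16 in 15lox/15lox, 15lox/1638N and 15lox/1572T. Fcer1g, a related adaptor, differed by -0.05, -0.19 and -0.05. Ptpn6, another partner, differed by -0.38, -0.46 and -0.36 (adjusted p = 0.135, 0.0586 and 0.49), with every mutant array below every control array.

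Tlr7 and Tlr9 are the endosomal sensors of single-stranded RNA and of CpG DNA through which these cells detect viruses. Tlr7, an X-linked gene, was read by 3 probe sets, of which 1419848_x_at and 1449640_at derive from the same expressed sequence tag. Probe set 1422010_at read 8.62, 8.75 and 8.94 on the control arrays, 7.45, 6.78 and 7.60 in 15lox/1638N and 8.17, 7.71 and 7.81 in 15lox/1572T, with no overlap in either genotype. In 15lox/15lox it read 8.41, 7.26 and 8.90, so array 3 lay within the control range and array 2 far below it. Both of these arrays were of female type, as were array 3 of 15lox/1638N and array 1 of 15lox/1572T, so a female-type array was the lowest of 15lox/15lox and another the highest of each mutant group. The differences at this probe set were -1.50 ± 0.35 (SE) in 15lox/1638N (adjusted p = 0.0711), -0.88 ± 0.35 in 15lox/1572T (adjusted p = 0.663) and -0.59 ± 0.35 in 15lox/15lox (adjusted p = 0.642).

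The other Tlr7 probe sets showed wider differences in 15lox/1638N and 15lox/1572T. At 1449640_at the control arrays read 6.93, 6.99 and 8.15, against 5.37, 5.00 and 4.78 in 15lox/1638N (-2.31 ± 0.55, SE, adjusted p = 0.0742) and 5.08, 5.20 and 6.23 in 15lox/1572T (-1.86 ± 0.55, adjusted p = 0.503). With all 6 wt/wt arrays, and so under the limit on arrays 1 to 3, the 3 probe sets of Tlr7 had adjusted p of 0.00646, 0.0125 and 0.0137 in 15lox/1638N, and they passed in neither of the other genotypes.

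Tlr9 showed no separation. It read 5.75, 5.92 and 5.92 in the control, 5.68, 5.63 and 5.75 in 15lox/15lox, 5.55, 5.83 and 5.64 in 15lox/1638N, and 5.82, 5.60 and 6.17 in 15lox/1572T. The groups overlapped, and the 95% intervals of the differences ran from -0.48 to 0.12, from -0.49 to 0.11 and from -0.30 to 0.30. Its mean lay at percentile 39 of all probe set means, a low signal at which differences may be understated.

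Around the sensors, 0 of 17 measured genes of the endosomal Toll-like receptor pathway passed in any genotype, with median differences of -0.10, -0.15 and -0.11 in 15lox/15lox, 15lox/1638N and 15lox/1572T. Unc93b1, the chaperone that carries both sensors to endosomes, differed by -0.46, -0.42 and -0.29, and Hsp90b1, another chaperone of theirs, by 0.01, 0.12 and 0.00. The protease Ctsb differed by 0.07, -0.13 and 0.02. Irak2, another gene of the pathway, differed more, by -0.57, -0.94 and -0.71 (adjusted p = 0.388, 0.0736 and 0.541).

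Pacsin1, an adaptor of membrane trafficking that is abundant in neurons and in plasmacytoid dendritic cells, was the gene that passed in all 3 genotypes. Probe set 1449381_a_at read 6.44, 6.85 and 6.11 in the control, 5.24, 5.20 and 5.33 in 15lox/15lox, 5.20, 5.03 and 4.87 in 15lox/1638N, and 5.23, 5.14 and 5.32 in 15lox/1572T. All 9 mutant arrays lay within 4.87 to 5.33, below every wt/wt array. It fell by 1.21 ± 0.16 (SE) in 15lox/15lox (adjusted p = 0.00234), by 1.43 ± 0.16 in 15lox/1638N (adjusted p = 0.00178) and by 1.23 ± 0.16 in 15lox/1572T (adjusted p = 0.0352). The first 2 calls held in every fit that left out an array and with array type as a covariate (adjusted p = 0.0230 and 0.00691). The call in 15lox/1572T held in only 1 of 12 such fits, that without wt/wt array 6, with adjusted p up to 0.165, and ended with the covariate (adjusted p = 0.136) and in a fit of only the 2 groups (adjusted p = 0.324).

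The mutant levels of Pacsin1 were low on the array scale, its mean lying at percentile 35, so its folds may be understated. Probe set 1449380_at, from the same expressed sequence tag, read 5.46, 6.05 and 5.96 in the control and 4.89, 4.78 and 5.17 in 15lox/15lox. It fell by 0.87 ± 0.17 (SE) there (adjusted p = 0.0264) and by 0.91 ± 0.17 in 15lox/1638N (adjusted p = 0.0280), and it differed by -0.54 ± 0.17 in 15lox/1572T (adjusted p = 0.535). Both calls ended with array type as a covariate (adjusted p = 0.126 and 0.0564). They also ended when wt/wt array 5, wt/wt array 6, or array 1 or 2 of the mutant genotype was left out, with adjusted p up to 0.129 and 0.117.

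Smim5, a small integral membrane protein, read 11.05, 11.19 and 10.93 in the control, 10.45, 10.63 and 10.55 in 15lox/1572T, 10.02, 9.90 and 10.34 in 15lox/15lox, and 9.89, 9.41 and 10.17 in 15lox/1638N. The 3 arrays of 15lox/1572T lay between the control and all arrays of the other mutant genotypes, which overlapped each other. It fell by 0.97 ± 0.18 (SE) in 15lox/15lox (adjusted p = 0.0205) and by 1.24 ± 0.18 in 15lox/1638N (adjusted p = 0.00873), and differed by -0.51 ± 0.18 in 15lox/1572T (adjusted p = 0.606). The call in 15lox/1638N held in all 12 fits that left out an array. That in 15lox/15lox ended when any control array or array 1 or 2 of 15lox/15lox was dropped, where adjusted p reached 0.106.

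Cox6a2, a subunit of cytochrome c oxidase, passed in no genotype with 3 control arrays. Probe set 1417607_at read 11.62, 11.60 and 12.30 in the control, 10.41, 10.48 and 10.90 in 15lox/1638N, 9.81, 11.06 and 11.51 in 15lox/1572T and 11.21, 10.45 and 11.79 in 15lox/15lox. Both 15lox/1638N and 15lox/1572T lay below the control at this probe set, with array 1 of 15lox/1572T farthest, and array 3 of 15lox/15lox fell in the control range. The differences were -1.24 ± 0.42 (SE) in 15lox/1638N (adjusted p = 0.189), -1.05 ± 0.42 in 15lox/1572T (adjusted p = 0.664) and -0.69 ± 0.42 in 15lox/15lox (adjusted p = 0.655). With all 6 wt/wt arrays, under the limit on arrays 1 to 3, the adjusted p in 15lox/1638N was 0.0431. The second probe set, 1457633_x_at, overlapped the control in 15lox/15lox and 15lox/1572T and differed by -1.27 ± 0.50 in 15lox/1638N (adjusted p = 0.249).

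Upb1, the beta-ureidopropionase of pyrimidine breakdown, overlapped the control in every genotype. It read 5.86, 6.73 and 5.33 in wt/wt, 4.64, 5.17 and 5.38 in 15lox/15lox, 5.64, 4.92 and 5.52 in 15lox/1638N, and 5.00, 4.90 and 5.63 in 15lox/1572T. The differences of -0.91, -0.61 and -0.80, each ± 0.35 (SE), had adjusted p of 0.362, 0.420 and 0.703.

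**Figure D2:**
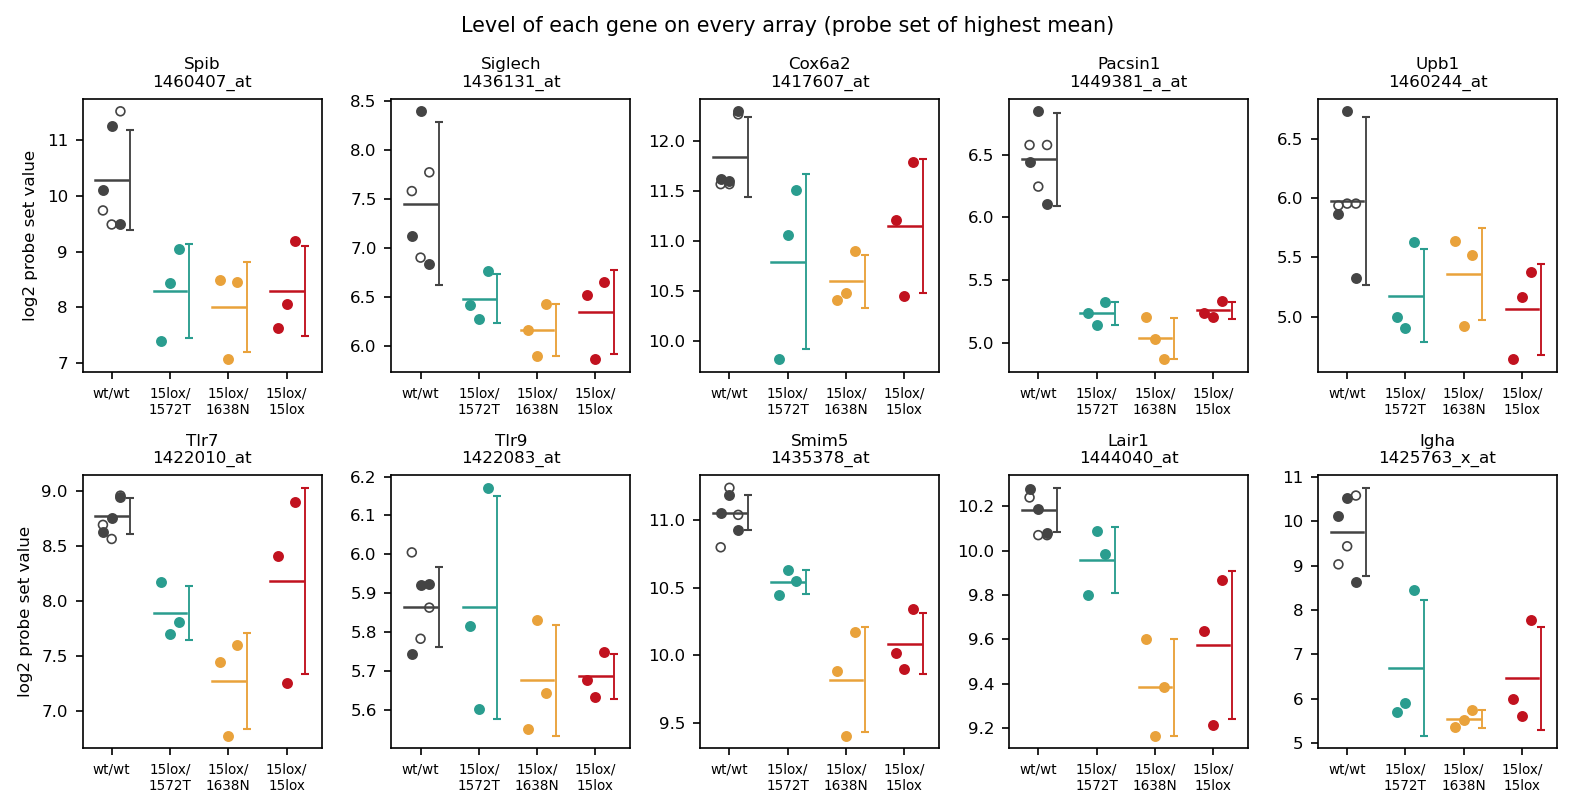
Log2 value of the probe set with the highest mean for each of the 10 genes (vertical axes, with ranges set for each gene and not starting at 0) by genotype (horizontal axes), with 1 point per array, a line at the mean of 3 arrays and a bar of 1 SD. Open points are wt/wt arrays 1 to 3, outside the main fit. Pacsin1, Smim5, Spib, Siglech and Igha show no overlap between wt/wt and any mutant genotype, while Tlr9 and Upb1 do.

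The 12 measured list genes of muscle and neurons, which share the other tissues of Cox6a2 and Pacsin1, showed 1 change in all. Actn2, a sarcomere actinin, rose by 2.34 ± 0.25 (SE) in 15lox/15lox and differed by 0.02 and -0.45 in 15lox/1638N and 15lox/1572T. The medians of the list were -0.09, -0.05 and -0.02 in that order.

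Igha had the widest differences of the 10 genes. Probe set 1425763_x_at read 10.11, 10.53 and 8.63 in the control, 5.36, 5.51 and 5.75 in 15lox/1638N, 5.995, 5.60 and 7.78 in 15lox/15lox, and 5.70, 5.91 and 8.45 in 15lox/1572T. All mutant arrays were lower than all control arrays, but array 3 of 15lox/15lox and array 3 of 15lox/1572T stood well above their partners, the latter only 0.18 below the lowest control array. It fell by 4.22 ± 0.76 (SE) in 15lox/1638N (adjusted p = 0.0241), and differed by -3.30 ± 0.76 in 15lox/15lox (adjusted p = 0.0672) and -3.07 ± 0.76 in 15lox/1572T (adjusted p = 0.386).

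The other Igha probe sets gave the same order. Both passed in 15lox/1638N, at -4.42 ± 0.85 (SE, 1421653_a_at, adjusted p = 0.0319) and -2.78 ± 0.48 (1429381_x_at, adjusted p = 0.0204), and the latter passed in 15lox/15lox at -2.45 ± 0.48 (adjusted p = 0.0297). With array type as a covariate only the -2.78 call held (adjusted p = 0.0468), the others having adjusted p of 0.0537, 0.0614 and 0.164. All 3 calls in 15lox/1638N also ended when wt/wt array 4, wt/wt array 5, or array 1 or 2 of that genotype was dropped, that of 1421653_a_at without its array 3 too, and adjusted p reached 0.129. The call in 15lox/15lox ended without either of the same control arrays, 15lox/15lox array 1 or 2, or 15lox/1638N array 1 (adjusted p up to 0.144). Immunoglobulin constant regions are similar to each other, so these probe sets may share signal with related genes.

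Of 15 other B and plasma cell genes measured, 3 fell in 15lox/15lox, 4 in 15lox/1638N and 0 in 15lox/1572T, and 0 rose. Blk, a Src-family kinase of B cells, fell by 1.59 ± 0.29 (SE) in both 15lox/15lox and 15lox/1638N (adjusted p = 0.0181 and 0.0246). Ebf1, a B lineage factor, fell by 1.83 and 2.35 ± 0.37, and the proteoglycan Sdc1 by 1.34 and 1.80 ± 0.28. Ighm, the IgM heavy chain, fell by 1.00 ± 0.16 in 15lox/1638N. The mean level of the list was 7.63 to 7.85 on the control arrays, 7.07 to 7.32 in 15lox/15lox, 7.01 to 7.26 in 15lox/1638N and 7.31 to 7.45 in 15lox/1572T. The part of B lineage cells in the levels of Igha and Spib was not tested.

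**Figure D3:**
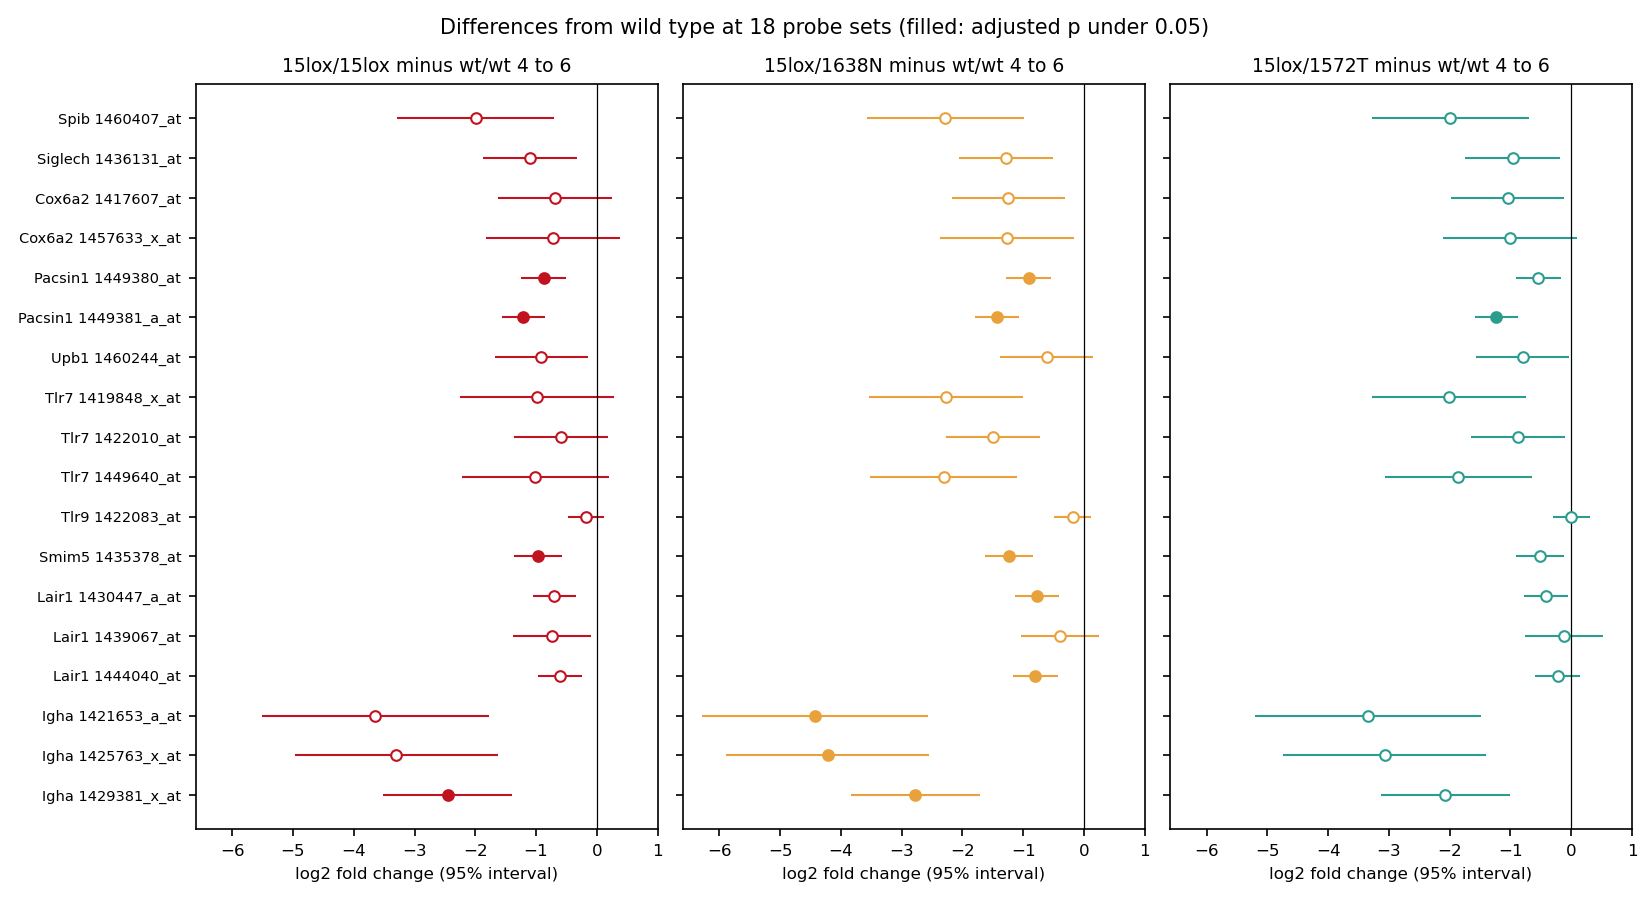
Log2 fold change against wt/wt arrays 4 to 6 (horizontal axes) with its 95% interval at each of the 18 probe sets (rows) in 15lox/15lox, 15lox/1638N and 15lox/1572T. Filled points passed an adjusted p under 0.05: 4, 8 and 1 of them. The points lie to the left of 0 except Tlr9 in 15lox/1572T, which is on it.

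The transcription factors known to direct plasmacytoid dendritic cell fate showed no call: of 13 measured, 0 rose and 0 fell in each genotype by limma, and the medians were -0.26, -0.31 and -0.16 in 15lox/15lox, 15lox/1638N and 15lox/1572T. Tcf4, the E protein that sets the identity of these cells, read 13.13 ± 0.12 (SD, n = 3) in wt/wt and differed by 0.00, -0.13 and -0.05, with 95% intervals from -0.18 to 0.18, from -0.31 to 0.05 and from -0.23 to 0.13. Irf8, which drives dendritic cell and monocyte progenitors, differed by -0.04, -0.23 and -0.22, and Etv6 by -0.12, -0.11 and 0.00. Other members differed more, without passing. Mycl, a Myc family factor, differed by -1.12, -1.21 and -0.62 (adjusted p = 0.347, 0.191 and 0.822). Id2, an inhibitor of E proteins, differed by -0.77, -0.87 and -0.27 (adjusted p = 0.132, 0.0707 and 0.848). The mean level of the list was 10.30 to 10.39 in the control, 9.96 to 10.20 in 15lox/15lox, 9.84 to 10.08 in 15lox/1638N and 9.95 to 10.42 in 15lox/1572T, so the arrays of the first 2 mutant genotypes lay below those of wt/wt.

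Among 21 further surface and effector genes of plasmacytoid dendritic cells, 1 fell and 1 rose in 15lox/15lox, 2 fell and 1 rose in 15lox/1638N, and 0 passed in 15lox/1572T. Ccr9, a chemokine receptor of these cells and of lymphoid progenitors, fell by 2.68 ± 0.38 (SE) in 15lox/15lox (adjusted p = 0.00329), had a log2 difference of -2.92 ± 0.38 in 15lox/1638N (adjusted p = 0.00413) and differed by -1.89 ± 0.38 in 15lox/1572T (adjusted p = 0.261). Ly6d, a surface protein of lymphoid progenitors that give rise to them, fell by 2.87 ± 0.58 in 15lox/1638N (adjusted p = 0.0403). Il7r, the interleukin-7 receptor, went the other way and rose by 4.11 ± 0.50 in 15lox/15lox. Its rise of 2.35 ± 0.50 in 15lox/1638N was just inside the threshold (adjusted p = 0.0499). The medians of the list were -0.25, -0.53 and -0.26.

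Some markers of other cell types passed as well. Of 15 conventional dendritic cell markers 1 rose in 15lox/15lox, and 1 rose and 1 fell in 15lox/1638N. The peptidase Dpp4 rose by 0.90 and 0.73 ± 0.14 (SE), and Cd74, the MHC class II invariant chain that plasmacytoid cells express too, fell by 3.58 ± 0.68 in 15lox/1638N. The mean level of that list was 8.13 to 8.49 in the control, 7.61 to 8.12 in 15lox/15lox, 7.23 to 7.69 in 15lox/1638N and 7.70 to 8.09 in 15lox/1572T. Its median differences were -0.21, -0.24 and -0.12 in these genotypes, far less than the fall of Cd74. Cd74 was not alone in a wide difference. In 15lox/1638N H2-Aa differed by -3.25 and Itgax by -1.85, without passing by limma (adjusted p = 0.07 and 0.0526). On the same list Dpp4, Mgl2, Zbtb46 and Cd209a read higher than wt/wt in that genotype. Of 11 T and NK cell markers 3 fell in 15lox/15lox, 3 in 15lox/1638N and 1 in 15lox/1572T: the T cell receptor subunit Cd3g fell by 1.28, 1.45 and 1.26 ± 0.12 in these genotypes, and Il2rb and Lat fell in the first 2. The mean level of that list was 7.62 to 7.80 in the control, 7.05 to 7.29 in 15lox/15lox, 6.84 to 7.25 in 15lox/1638N and 7.10 to 7.33 in 15lox/1572T. Of 11 monocyte and macrophage markers 3, 2 and 1 rose and 0 fell. Cd14, the lipopolysaccharide co-receptor, rose by 2.45, 3.56 and 2.53 ± 0.18, Ccr2 by 1.15 and 0.90 ± 0.14 in 15lox/15lox and 15lox/1638N, and F13a1 by 1.63 ± 0.29 in 15lox/15lox. The mean level of the monocyte list was 8.52 to 8.64 in the control, 8.78 to 9.29 in 15lox/15lox, 8.72 to 9.02 in 15lox/1638N and 8.68 to 8.95 in 15lox/1572T. Its median differences were 0.02, -0.19 and -0.08 in these genotypes, so the monocyte list did not rise as a whole. What part these cell types had in the levels of the 10 genes was not tested.

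**Figure D4:**
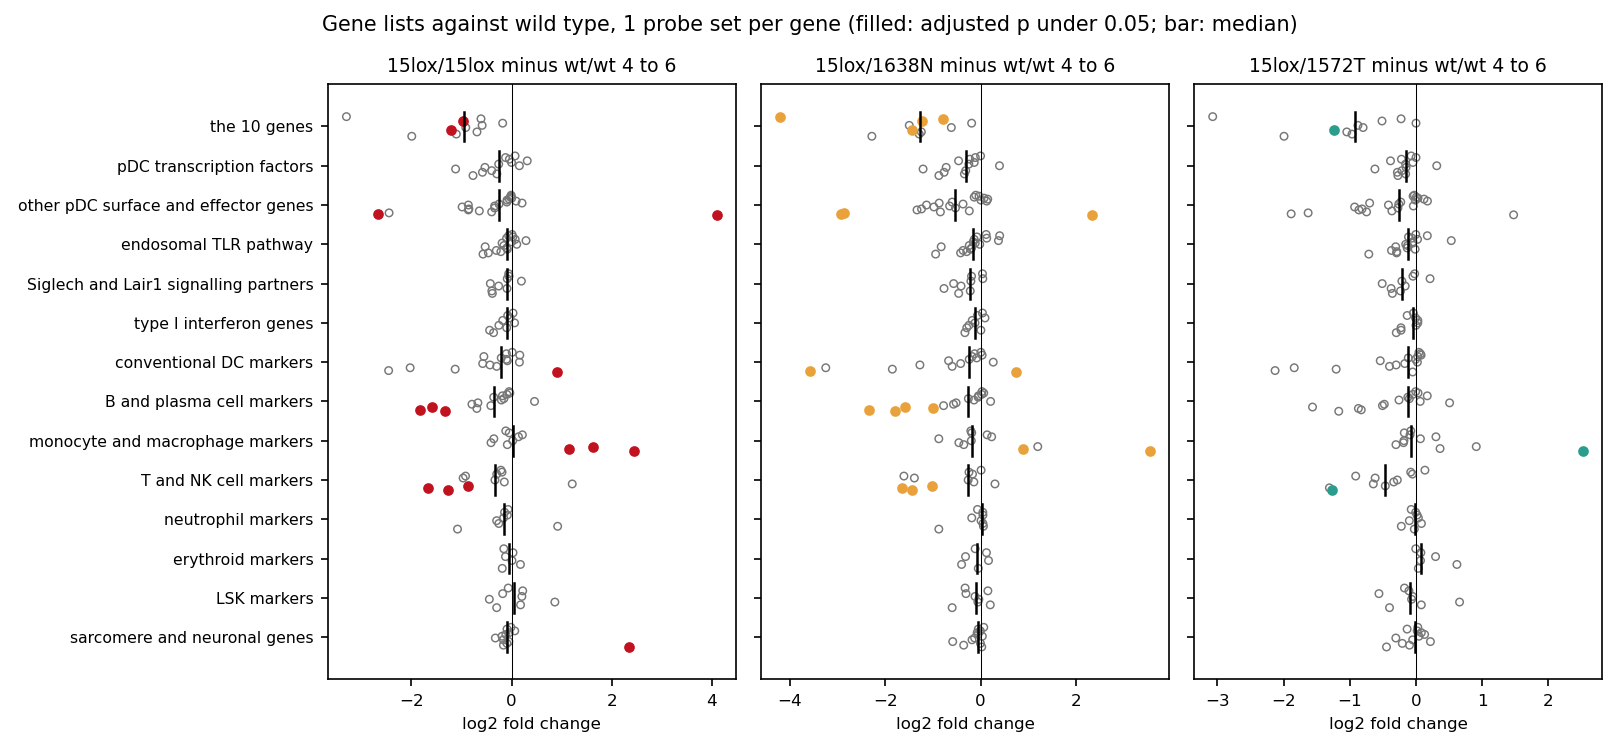
Log2 fold change against wt/wt arrays 4 to 6 (horizontal axes) for 1 probe set per gene, the 10 genes in the top row and 13 gene lists below, with a bar at each median and filled points for an adjusted p under 0.05. The 10 genes lie to the left of 0, apart from Tlr9 at 0 in 15lox/1572T, while the list medians of transcription factors and of sensor pathway genes lie between -0.31 and -0.10. Some other list medians are lower: -0.53 for further surface and effector genes in 15lox/1638N, -0.46 for T and NK cell markers in 15lox/1572T.

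Between mutant genotypes 0 of the 18 probe sets passed in each of the 3 pairs, where 0.187% (15lox/15lox against 15lox/1638N), 1.00% (15lox/15lox against 15lox/1572T) and 0.171% (15lox/1638N against 15lox/1572T) of all probe sets did. At an unadjusted p under 0.05 by limma there were 3, 2 and 3 of 18, where 8.68%, 8.03% and 7.73% of all probe sets were under it. The 3 probe sets of Tlr7 were those of the first pair: they read 0.91, 1.29 and 1.29 higher in 15lox/15lox than in 15lox/1638N, with 95% intervals from 0.14 to 1.68, from 0.02 to 2.56 and from 0.08 to 2.50, and adjusted p from 0.546 to 0.575. Smim5 differed by -0.72 between 15lox/1638N and 15lox/1572T, with an interval from -1.12 to -0.33 (adjusted p = 0.296), and by -0.46 between 15lox/15lox and 15lox/1572T, from -0.85 to -0.06 (adjusted p = 0.510). Lair1 at 1444040_at differed by -0.57 between 15lox/1638N and 15lox/1572T, from -0.94 to -0.21 (adjusted p = 0.430). These intervals are wide, so the order of the mutant genotypes is not settled for any of the 10 genes.

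The arrays of a genotype differed in how low the genes lay as a set. Averaged over the 10 genes, the difference from the wt/wt mean was -1.39, -1.76 and -1.29 on the 3 arrays of 15lox/1638N, -1.27, -1.53 and -0.67 in 15lox/15lox, and -1.39, -1.19 and -0.64 in 15lox/1572T. Array 3 of 15lox/15lox and array 3 of 15lox/1572T were thus closest to wt/wt, with 9 of 10 genes below the control mean where every other mutant array had 10 of 10. Without both arrays, a choice made after seeing them, 6, 12 and 3 of 18 probe sets passed in 15lox/15lox, 15lox/1638N and 15lox/1572T, all lower. Of all 45037 probe sets 240, 838 and 23 were called lower in that fit. The 3 in 15lox/1572T were those of Igha, and Pacsin1 no longer passed there (adjusted p = 0.0621). Among wt/wt arrays 4 to 6, with each gene read at its probe set of highest mean, array 5 was highest and array 6 lowest for Spib, Siglech, Pacsin1, Upb1, Smim5 and Igha. Lair1 was lowest on array 6 too, whereas Tlr7, Tlr9 and Cox6a2 were highest there.

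The genes whose pattern over the 12 arrays was most like that of Siglech were Grin2c (Pearson r = 0.942), Rfx2 (0.935), Klf2 (0.934), Map3k9 (0.933), Ciita (0.931) and Wfdc21 (0.930), out of 3304 genes with a range of at least 1 log2 unit. Each had its highest mean in wt/wt; Ciita, for instance, averaged 7.37 there and 5.78, 5.86 and 5.94 in 15lox/15lox, 15lox/1638N and 15lox/1572T. Of the other 9 genes, Spib (0.878), Igha (0.875) and Pacsin1 (0.873) were closest to Siglech, and Cox6a2 (0.578) and Tlr9 (0.456) the least close. These correlations span groups that differ in level and share the same arrays, and describe these arrays only.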

How the data were processed

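Expression was measured on 15 arrays, 1 per sample. Each deposited value is the log2 signal of a probe set, a scale read from the range of the values. RMA and mm9 are named in the submitters' processing notes, without role or version. The 64 control probe sets were left out, which left 45037. Names come from the platform annotation, single symbols only (34945 probe sets).

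All probe sets were fitted with limma 3.58.1 (lmFit, eBayes) in R 4.3.3 on 12 arrays in 4 groups, with 8 residual degrees of freedom. Tests were two-sided, with Benjamini-Hochberg adjustment over all probe sets in each contrast and a threshold of 0.05. There was no filter on level. The fit was tested on simulated data. The members, gene lists and tests were chosen with earlier results of these data known.

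Named were all members, up to 4 genes of lowest p from each list among those past the threshold (otherwise the 2 of highest level), through the probe set of highest mean, and the 6 genes most like Siglech. Kit, Flt3, Irf8, Mycl, Id2, Ptpn6, Irak2, Unc93b1, H2-Aa, Itgax, Mgl2, Zbtb46 and Cd209a fall outside this rule. They were chosen after their values were seen, as were the promoter patterns.

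Equal replicate numbers come from the sample titles. Deviations from group means correlated by 0.244, 0.148 and 0.135 for numbers 1 to 3 between 15lox/15lox and 15lox/1572T. They correlated by 0.086, 0.462 and 0.479 between 15lox/15lox and 15lox/1638N, and by -0.126, 0.329 and 0.049 between 15lox/1572T and 15lox/1638N. The main fit used no pairing, so all values above are unpaired unless a block is named. With the replicate number as a block over the 3 mutant genotypes, each pair of them still had 0 members called. Alternatives covered control arrays, fit, filter, normalization, array type, probe sets per gene, thresholds and single arrays left out.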

Additional observations from a re-analysis of the deposited data

How the results depend on the processing

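The direction of the differences from wt/wt held throughout at the 18 probe sets except Lair1 1439067_at in 15lox/1572T, which read 0.12 with array weights, -0.37 to 0.28 when single arrays were left out, and 0.28 without array 3 of both 15lox/1572T and 15lox/15lox, and Tlr9 in 15lox/1572T, which had no direction to lose. How many passed did depend on the fit, and the cause was not tested. Against the counts of 4, 8 and 1 called members in 15lox/15lox, 15lox/1638N and 15lox/1572T, all 6 wt/wt arrays gave 8, 14 and 3 (too many if arrays 1 to 3 had been adjusted to the others), array weights 8, 13 and 4, and array type as a covariate 2, 3 and 0. The replicate block, on all 15 arrays, gave 8, 11 and 3. Numbers 4 to 6 occur only in wt/wt, so under the block these comparisons rest on wt/wt arrays 1 to 3 alone. The limit on those arrays therefore applies in full, and equal numbers did not correlate in every pair. Fits of only the 2 groups compared gave 2, 12 and 0, and in 15lox/15lox lost Pacsin1 1449380_at (adjusted p = 0.0975) and Igha 1429381_x_at (adjusted p = 0.0566). The filter on low levels, which tests 11 of the 18, gave 2, 6 and 0, and a required log2 fold change over 1 gave 2, 5 and 1. In 15lox/15lox treating wt/wt arrays 1 to 3 as a separate group gave 7, as did a threshold of 0.1, and in 15lox/1638N 1 probe set per gene gave 5 of 10. Without array 3 of both genotypes named above, a choice added after seeing the data, 15lox/1572T had 3. Leaving out 1 array at a time gave 1 to 6, 2 to 11 and 0 to 1. Between mutant genotypes the count was 0 in all fits but that without 15lox/1572T array 3, which called 1, Lair1 1439067_at, in 15lox/15lox against 15lox/1572T, so that these counts ran from 0 to 1.

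Among all probe sets, 674, 627 and 13 were called against wt/wt. All 6 wt/wt arrays gave 1955, 3908 and 283, array weights 1124, 3439 and 92, array type 346, 392 and 9, the block 692, 1046 and 31, only the 2 groups 570, 1134 and 1, the separate wt/wt group 819, 957 and 18, the level filter 439, 566 and 7, array 3 of both genotypes left out 748, 1288 and 36, the threshold of 0.1 913, 1247 and 22, the required fold 420, 319 and 11, and single arrays left out 387 to 753, 159 to 881 and 7 to 25. Between mutant genotypes 84, 451 and 77 were called (15lox/15lox with 15lox/1638N, 15lox/15lox with 15lox/1572T, 15lox/1638N with 15lox/1572T), against 220, 697 and 157 with all 6 wt/wt arrays, 2, 255 and 13 in fits of 2 groups, 173, 549 and 134 with weights, 38, 356 and 33 with the block, and 24 to 185, 329 to 496 and 39 to 89 without single arrays. Levels near background limit what can be said of Tlr9, Upb1 and Pacsin1. The mutant levels of Igha and Tlr7 were low at some probe sets too. In 15lox/1638N Igha averaged 5.54 at 1425763_x_at and Tlr7 4.82 at 1419848_x_at, so these differences may also be understated.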

Other observations

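The interferon genes that plasmacytoid dendritic cells are known for were not called: of 9 measured type I interferon and receptor genes 0 passed in any genotype by limma, and the receptor subunits Ifnar1 and Ifnar2 differed from wt/wt by -0.08 and -0.10 in 15lox/15lox, by -0.07 and -0.29 in 15lox/1638N and by -0.13 and -0.23 in 15lox/1572T. The list averaged 6.38 to 6.46 on the control arrays and 6.13 to 6.41 on the mutant arrays. Ifnar1 and Ifnar2, at percentiles 88 and 86 of all probe set means, raise this average. The interferon genes themselves lay at percentiles 0 to 45, low signals at which differences may be missed. Of 8 neutrophil and 6 erythroid markers 0 passed in any genotype, and several of both lists had low signals with the same limit. Cxcr2, a chemokine receptor of neutrophils, differed by -1.08, -0.88 and -0.03 in 15lox/15lox, 15lox/1638N and 15lox/1572T (adjusted p = 0.0891, 0.142 and 0.993), and Tfrc, the transferrin receptor, by 0.03, 0.12 and 0.07.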
